A study of Mus musculus with 15 samples.

Results

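Tumor-derived endothelial cells (TDECs), grown in culture from glioma stem cells, were set against mouse brain microvascular endothelial cells (MBMECs), the cells that line the small vessels of the brain. Members were taken by their labels, which name 3 TDEC and 3 MBMEC libraries among the 15 of the series, and every gene of the table was compared between them. The TDECs came from 005, a single GFP-marked glioma stem cell line of C57BL/6 mice, and were kept in endothelial growth medium EGM-2 at 1% oxygen. The labels of these 3 libraries carry no day, and they were taken as day 5 of differentiation, which is not stated of them in the sources used here. The MBMECs were bought as primary cells from C57BL/6 mice and grown in a serum-containing medium of another maker. Their oxygen level and the alleles that 005 carries are not given in the sources used here. Neither group received a drug. Cell of origin and medium therefore differed together, oxygen may have differed with them, and their shares in any difference cannot be told apart. The study calls the TDEC replicates biological, whereas nothing says so of the MBMEC libraries, so the p-values may measure technical spread in that group. Because RNA was taken in bulk, fewer cells of a type and less RNA per cell cannot be told apart either.

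Brain endothelial cells hold together through VE-cadherin and claudin-5, run a transcription programme of ETS and SoxF factors, and receive BMP, Notch and Wnt signals that set vessel type and barrier function. Glioma stem cells keep the Sox, Olig and Pou factors of neural progenitors, and can take on features of glia or of vessel wall cells in culture. At low oxygen the prolyl hydroxylases that mark HIF proteins for destruction slow down, and HIF then raises genes of glycolysis, angiogenesis and matrix modification.

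The libraries held 11283680 to 12455832 counts in TDECs and 15617686 to 17093061 in MBMECs, and 21478 to 21907 genes had a count in TDECs against 19051 to 19414 in MBMECs. Mitochondrially encoded genes took 3.48% to 3.60% of the counts in TDECs and 1.41% to 1.62% in MBMECs. MBMEC replicate 2 lay apart: its chi-square per gene was 4.36 against replicate 1 and 4.94 against replicate 3, the remaining MBMEC pair gave 2.79, and TDEC pairs gave 2.36 to 2.64. Of 49585 genes, 16135 had enough counts to be tested by edgeR's quasi-likelihood test with Benjamini-Hochberg adjustment. Genes with an adjusted p under 0.05 and an absolute log2 fold change above 1, always TDEC over MBMEC, were called. On this rule 4534 genes (28.1%) were higher and 3359 (20.8%) lower, 7893 (48.9%) in all. Without MBMEC replicate 2 the counts were 4692 and 3428. The 2 groups differed so widely that in 13849 genes (85.8%; 45.6% higher and 40.2% lower) no TDEC library overlapped an MBMEC library, and separation of the libraries by itself sets no gene apart here. The median log2 fold change of all genes tested was 0.09, with quartiles of −0.77 and 1.24. Levels are given as mean ± SD of TMM-scaled read counts (CPM; n = 3 libraries per group). For a gene absent from all libraries of a group, the fold is the least that 3 counts over that group would allow, and with 1 to 3 counts it is a ratio of counts with its 95% interval, which covers counting error only.

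The genes that define an endothelial cell were at or near 0 in TDECs, and the data thus go against the endothelial part of the TDEC label at the level of RNA. Cdh5, which encodes VE-cadherin, had 0, 0.239 and 0 CPM in the TDEC libraries, against 2015, 2095 and 2009 CPM in the MBMEC libraries. The claudin-5 gene Cldn5, the sealing protein of the blood-brain barrier, had no counts in the TDEC libraries, against 954, 865 and 995 CPM in the MBMEC libraries. Emcn, an endothelial sialomucin, had 0.0865, 0 and 0 CPM in the TDEC libraries, against 224, 223 and 230.3 CPM in the MBMEC libraries. No TDEC library came near an MBMEC library in any of these genes. Erg, an ETS factor that maintains endothelial identity, averaged 0.159 ± 0.158 CPM in TDECs and 217 ± 4.3 CPM in MBMECs (log2 fold change −10.299, SE 0.14, adjusted p = 2.0e-30 by edgeR). Pecam1, an adhesion molecule of endothelial contacts, averaged 0.705 ± 0.0959 CPM in TDECs and 1231 ± 23.6 CPM in MBMECs (log2 fold change −10.75, SE 0.09). Esam, another junctional adhesion molecule, averaged 1.34 ± 0.546 CPM in TDECs and 546 ± 13.7 CPM in MBMECs.

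Markers of the line of origin were high in the same TDEC libraries. Ptprz1, a receptor phosphatase of neural progenitors and glia, had 617, 619 and 629 CPM in the TDEC libraries, against 0.0598, 0 and 0 CPM in the MBMEC libraries. Fabp7, the fatty acid binding protein of radial glia, had 129.9, 144 and 154 CPM in the TDEC libraries, against no counts in the MBMEC libraries. Both genes were all but absent from every MBMEC library. Nes, the intermediate filament of neural progenitors, was shared, with 589.8 ± 21.1 CPM in TDECs and 229 ± 1.43 CPM in MBMECs (log2 fold change 1.36, SE 0.04).

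**Figure D1:**
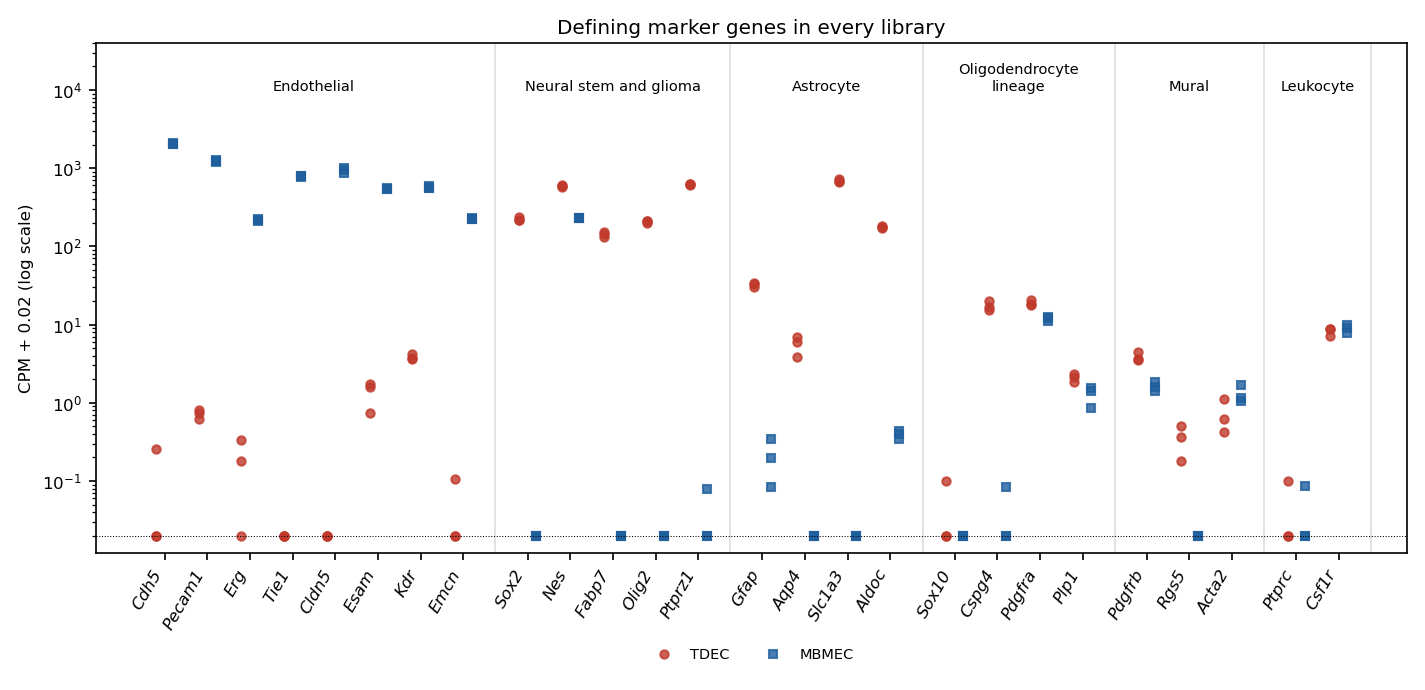
Defining marker genes by cell type, as CPM + 0.02 on a log scale, with 1 point per library (TDEC in red on the left, MBMEC in blue on the right) and the dotted line at no counts. Cdh5 lay near 0 in the 3 TDEC libraries and near 2040 CPM in MBMECs, whereas Slc1a3 lay near 691 CPM in TDECs and had no counts in MBMECs.

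Markers of other cell types were checked in the same libraries. Of the 18 microglia, macrophage and leukocyte markers, 6 were tested, with 1 higher and 3 lower, and the leukocyte antigen gene Ptprc had 1 count over the TDEC libraries and 1 over the MBMEC libraries. Summed levels of that list were 35.4 to 40.1 CPM in TDECs and 103.8 to 117.7 CPM in MBMECs, most of it Cd68, a lysosomal glycoprotein with 26.8 ± 3.1 CPM in TDECs and 94.7 ± 6.56 CPM in MBMECs. The mural list of 17 genes summed to 25.4 to 28.3 CPM in TDECs and 7.06 to 8.81 CPM in MBMECs, with Rgs5 and Kcnj8 at 0 in MBMECs and below 1 CPM in TDECs. Of its 7 tested members 5 were higher and none lower, and 1 was lower without TDEC replicate 3. The fibroblast list of 18 genes summed to 276.5 to 281.3 CPM in TDECs and 9.81 to 11.4 CPM in MBMECs, which in TDECs came mostly from Prrx1 and Twist1, transcription factors of mesenchyme that gliomas can also carry. Of its 8 tested members 6 were higher and none lower, at a median log2 fold change of 3.69. The fibroblast collagen gene Col1a1 stood at 1.06 ± 0.171 CPM in TDECs and at 0.592 ± 0.225 CPM in MBMECs. Its partner Col3a1 stood at 0.269 ± 0.115 CPM in TDECs and at 0.364 ± 0.27 CPM in MBMECs. The epithelial list of 13 genes summed to 1.04 to 1.35 CPM in TDECs and 1.44 to 1.79 CPM in MBMECs. Krt8, Krt18 and Cdh1, which mark epithelium, had no counts in any of the 6 libraries. Epcam had 6 counts over the TDEC libraries and none in MBMECs. Krt19, the only member tested, had none in TDECs and 68 over the MBMEC libraries, and was called lower. The part of these cell types in the results was not tested.

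The endothelial programme was lower in TDECs from its transcription factors to its junctions. Of 22 endothelial transcription factors tested, 19 fell and 3 rose, with a median log2 fold change of −2.36. The smallest falls were those of Foxo1 (log2 fold change −1.06, SE 0.06), Lmo2 (log2 fold change −1.27, SE 0.09) and Mef2c (log2 fold change −1.49, SE 0.06). The hypoxia-inducible factor gene Epas1 averaged 54.3 ± 6.49 CPM in TDECs and 221 ± 14.2 CPM in MBMECs. Tal1 (log2 fold change −5.49, SE 0.14) and Fli1 (log2 fold change −6.42, SE 0.102), factors of blood and vessels, fell further. Sox17, a SoxF factor of arteries, averaged no counts in TDECs and 171 ± 11.2 CPM in MBMECs, which was at least 2093-fold lower. Sox18, its relative in veins and lymphatics, averaged 0.0819 ± 0.0798 CPM in TDECs and 198 ± 12.4 CPM in MBMECs (2427-fold lower, counting interval 830.2 to 11770.1).

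Lymphatic genes were divided. Prox1, the master regulator of lymphatic endothelium, is also a factor of neural progenitors, and it had 42.8, 36.5 and 38.4 CPM in the TDEC libraries, against no counts in the MBMEC libraries. All 3 TDEC libraries were high and the MBMEC libraries were empty (at least 622-fold higher). Lyve1, the hyaluronan receptor of lymphatic endothelium, had the reverse pattern, with no counts in the TDEC libraries, against 456, 468 and 435 CPM in the MBMEC libraries. The lymphatic VEGF receptor gene Flt4 averaged 0.265 ± 0.28 CPM in TDECs and 118 ± 3.54 CPM in MBMECs (log2 fold change −8.71, SE 0.17). Hey1 also rose, a Notch target that both vessels and neural progenitors use, with 86.3 ± 1.32 CPM in TDECs and 0.0636 ± 0.0655 CPM in MBMECs (1371-fold higher, counting interval 469 to 6651).

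Among 32 endothelial junction and surface genes tested, 31 fell and only Jam3 rose, and the median log2 fold change was −8.65. The smallest fall was that of Tjp1, a tight junction adaptor gene, which averaged 182 ± 8.72 CPM in TDECs and 425 ± 31 CPM in MBMECs (log2 fold change −1.22, SE 0.05). The occludin gene Ocln averaged 0.713 ± 0.411 CPM in TDECs and 10.8 ± 0.382 CPM in MBMECs. F11r, which encodes JAM-A, averaged 0.267 ± 0.197 CPM in TDECs and 281 ± 8.43 CPM in MBMECs (log2 fold change −9.97, SE 0.12), while its relative Jam3 averaged 59.7 ± 0.737 CPM in TDECs and 24.6 ± 1.44 CPM in MBMECs (log2 fold change 1.28, SE 0.07). Podxl, a surface mucin, kept 62.8 ± 3.195 CPM in TDECs and 487 ± 14 CPM in MBMECs. The machinery of caveolae, small pits of the cell membrane, was lower too, with 5 of 6 tested members down. Cav1, the main caveolin, averaged 0.957 ± 0.217 CPM in TDECs and 1035 ± 18.6 CPM in MBMECs (log2 fold change −10.07, SE 0.09), whereas Cav2 averaged 71.9 ± 3.14 CPM in TDECs and 199 ± 8.58 CPM in MBMECs (log2 fold change −1.47, SE 0.05). Ehd2, an ATPase at the caveolar neck, averaged 37.8 ± 4.34 CPM in TDECs and 1165 ± 38.8 CPM in MBMECs (log2 fold change −4.94, SE 0.06).

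The MBMEC libraries were endothelial by these markers but lacked counts of part of the barrier's transport set. Other transporter genes had counts in every MBMEC library, among them Slc2a1 and, given below, Slc7a5 and Slc3a2. The whole list of barrier and Wnt genes summed to 1881 to 1954 CPM in MBMECs and to 4613 to 4721 CPM in TDECs. In TDECs a large part of that sum came from Slc7a5 and Slc3a2, so it does not stand for the list as a whole. Slc38a5, Slco1a4, Slc22a8 and Car4, transporters and an enzyme of brain capillaries, had no counts in any of the 6 libraries, and the thyroxine transporter gene Slco1c1 had none in MBMECs. The brain endothelial factors Foxq1 and Foxf2 also had none in MBMECs. At the level of RNA, only part of these genes thus bore out the brain part of the MBMEC label. How well these cultured cells stand for brain vessels was not tested. Abcb1a, which encodes the efflux pump P-glycoprotein, averaged 0.933 ± 0.604 CPM in TDECs and 1.15 ± 0.388 CPM in MBMECs and was not called. Slc2a1, the glucose transporter of the barrier, averaged 228 ± 5.46 CPM in TDECs and 114 ± 4.99 CPM in MBMECs (log2 fold change 0.996, SE 0.05, not called).

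In TDECs more members of the same list rose than fell. Of 26 tested members of the barrier and Wnt list, 15 rose (57.7%, against 28.1% of all genes). Another 4 fell (15.4%, against 20.8%), and the median was 1.67. Mfsd2a, the lysolipid carrier that takes docosahexaenoic acid into the brain, had 26.3, 23.3 and 25.4 CPM in the TDEC libraries, against 0.12, 0.128 and 0 CPM in the MBMEC libraries. Slc7a5, the large neutral amino acid transporter, had 1046, 1064 and 1073 CPM in the TDEC libraries, against 104, 99.3 and 103 CPM in the MBMEC libraries, and its partner Slc3a2 had 1101, 1139 and 1131 CPM in the TDEC libraries, against 186, 197 and 200.02 CPM in the MBMEC libraries. In each of these the TDEC libraries were the higher ones. The Wnt targets Axin2 (at least 419-fold higher), Nkd1 (at least 343-fold higher) and Lef1 (at least 74.4-fold higher) had counts in TDECs and none in MBMECs, whereas Apcdd1, a Wnt-induced inhibitor of the pathway, fell (2.2 ± 0.195 CPM in TDECs and 11.4 ± 1.26 CPM in MBMECs). The receptors that brain vessels use to read Wnt7 went the other way. Fzd4 averaged 26.9 ± 1.45 CPM in TDECs and 319 ± 11.7 CPM in MBMECs (log2 fold change −3.57, SE 0.06), and Adgra2, which encodes the co-receptor GPR124, averaged 59 ± 4.17 CPM in TDECs and 442 ± 7.01 CPM in MBMECs (log2 fold change −2.9, SE 0.05).

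Of 21 Notch genes tested, 10 rose (47.6%, against 28.1% of all genes) and 6 fell (28.6%, against 20.8%). Among ligands, Dll4, the ligand of arterial and tip cells, averaged 0.733 ± 0.052 CPM in TDECs and 77.2 ± 3.78 CPM in MBMECs (log2 fold change −6.7, SE 0.13). Dll1 averaged 4.67 ± 0.454 CPM in TDECs and 99.5 ± 3.65 CPM in MBMECs (log2 fold change −4.42, SE 0.09), while Jag1 averaged 214 ± 2.14 CPM in TDECs and 88.4 ± 5.72 CPM in MBMECs (log2 fold change 1.27, SE 0.05) and Dner, a neuronal ligand, averaged 51.5 ± 2.07 CPM in TDECs and 0.248 ± 0.114 CPM in MBMECs (log2 fold change 7.63, SE 0.17). Among receptors, the endothelial Notch4 averaged 3.02 ± 0.938 CPM in TDECs and 302 ± 7.28 CPM in MBMECs (log2 fold change −6.65, SE 0.09), and Notch3, the receptor of mural and progenitor cells, averaged 157 ± 3.53 CPM in TDECs and 0.756 ± 0.0642 CPM in MBMECs (log2 fold change 7.68, SE 0.103). Notch1 was close between the groups, at 182 ± 4.86 CPM in TDECs and at 269 ± 19.1 CPM in MBMECs (log2 fold change −0.57, SE 0.05, not called). Among targets, Nrarp, a feedback inhibitor, averaged 42.1 ± 2.79 CPM in TDECs and 353 ± 8.5 CPM in MBMECs (log2 fold change −3.07, SE 0.06), against a rise of the progenitor factor Hes5 (at least 38-fold higher).

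BMP and TGF-beta genes were called on both sides. Acvrl1, which encodes the endothelial BMP9 receptor ALK1, averaged 2.09 ± 0.39 CPM in TDECs and 575 ± 17.5 CPM in MBMECs (log2 fold change −8.09, SE 0.08), and its co-receptor gene Eng averaged 1.18 ± 0.334 CPM in TDECs and 254 ± 2.7 CPM in MBMECs (log2 fold change −7.75, SE 0.098). The BMP receptor gene Bmpr1a had 305, 307 and 303 CPM in the TDEC libraries, against 0.419, 0.192 and 0.262 CPM in the MBMEC libraries. All 3 TDEC libraries were high, and Bmpr1b, another type I receptor gene, had counts only in TDECs (at least 108-fold higher). Tgfbr2 averaged 51.9 ± 3.15 CPM in TDECs and 335 ± 12.1 CPM in MBMECs (log2 fold change −2.69, SE 0.06), and among ligands Tgfb1 averaged 6.12 ± 1.19 CPM in TDECs and 195 ± 11.9 CPM in MBMECs (log2 fold change −4.997, SE 0.09) and Tgfb2 averaged 41.3 ± 1.62 CPM in TDECs and 7.97 ± 1.49 CPM in MBMECs (log2 fold change 2.38, SE 0.11). Of the 4 genes for Id proteins, BMP-responsive inhibitors of basic helix-loop-helix factors, 3 rose, with Id3 at 109 ± 4.71 CPM in TDECs and at 12.6 ± 1.52 CPM in MBMECs (log2 fold change 3.12, SE 0.08) and Id4 higher by at least 449-fold, while Id1 averaged 66.8 ± 1.79 CPM in TDECs and 38.7 ± 1.99 CPM in MBMECs and was not called. In all, 13 of 29 tested members rose (44.8%, against 28.1% of all genes) and 8 fell (27.6%, against 20.8%).

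Genes by which endothelium acts on blood flow moved in both directions. Of 23 tested, 12 fell (52.2%, against 20.8% of all genes) and 9 rose (39.1%, against 28.1%), with a median of −1.74. Nos3, the endothelial nitric oxide synthase, had 0.432, 0.398 and 0.871 CPM in the TDEC libraries, against 1993, 2039.8 and 1983 CPM in the MBMEC libraries, a log2 fold change of −11.75. Npr1, a natriuretic peptide receptor, averaged 19.5 ± 2.16 CPM in TDECs and 235 ± 2.33 CPM in MBMECs (log2 fold change −3.59, SE 0.07). The adrenomedullin receptor subunits Calcrl (59.95 ± 2.8 CPM in TDECs and 688 ± 33.8 CPM in MBMECs) and Ramp2 (3.67 ± 0.947 CPM in TDECs and 252 ± 25.4 CPM in MBMECs) were both lower, whereas Ramp1 averaged 22.9 ± 2.28 CPM in TDECs and no counts in MBMECs (at least 363-fold higher). The endothelin receptor genes parted, with Ednrb at 19.5 ± 1.83 CPM in TDECs and at 279.8 ± 22.3 CPM in MBMECs (log2 fold change −3.85, SE 0.07) and Ednra, the receptor of smooth muscle, at 5.61 ± 0.341 CPM in TDECs and no counts in MBMECs (at least 89.1-fold higher).

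Clotting genes moved both ways, most of them down. Thbd, thrombomodulin, which switches thrombin to an anticoagulant enzyme, had 0.605, 0.398 and 0.554 CPM in the TDEC libraries, against 664, 687 and 658 CPM in the MBMEC libraries. F3, tissue factor, which starts clotting, had 115, 120.3 and 118 CPM in the TDEC libraries, against 0.897, 1.15 and 0.785 CPM in the MBMEC libraries. The group means thus lay on opposite sides, with log2 fold changes of −10.31 for Thbd and 6.95 for F3. Procr, the endothelial protein C receptor, averaged 4.98 ± 0.391 CPM in TDECs and 1133 ± 54 CPM in MBMECs (log2 fold change −7.83, SE 0.07), and Tfpi, an inhibitor of tissue factor, averaged 6.6 ± 0.26 CPM in TDECs and 104 ± 6.14 CPM in MBMECs (log2 fold change −3.97, SE 0.09). On the side of fibrinolysis, the protease gene Plat averaged 329 ± 7.59 CPM in TDECs and 19.9 ± 0.879 CPM in MBMECs (log2 fold change 4.04, SE 0.06) and the protease gene Plau 4.71 ± 0.705 CPM in TDECs and 695 ± 10.5 CPM in MBMECs (log2 fold change −7.19, SE 0.07). Serpine2, an inhibitor of thrombin and plasminogen activators, averaged 1234 ± 51.3 CPM in TDECs and 0.0612 ± 0.0599 CPM in MBMECs (19617-fold higher, counting interval 6712 to 95128). Over the list 13 of 21 tested genes fell (61.9%, against 20.8% of all genes) and 7 rose (33.3%, against 28.1%).

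Of the genes that let leukocytes settle on a vessel wall more fell than rose, and among those that fell were Selp (0.44 ± 0.148 CPM in TDECs and 396 ± 22.9 CPM in MBMECs), which encodes P-selectin, and Sele (815-fold lower, counting interval 225 to 6738), which encodes E-selectin. Vcam1 averaged 9.97 ± 1.86 CPM in TDECs and 65.7 ± 4.46 CPM in MBMECs (log2 fold change −2.72, SE 0.098). The monocyte chemokine gene Ccl2 averaged 3.85 ± 0.411 CPM in TDECs and 207 ± 5.24 CPM in MBMECs (log2 fold change −5.75, SE 0.08), and the neutrophil chemokine gene Cxcl1 averaged 2.78 ± 0.759 CPM in TDECs and 77.6 ± 6.24 CPM in MBMECs (log2 fold change −4.79, SE 0.12). Cx3cl1, the membrane-bound chemokine read by microglia, rose (126 ± 8.33 CPM in TDECs and 13.5 ± 0.201 CPM in MBMECs, log2 fold change 3.22, SE 0.07), as did Lif (60.9 ± 3.17 CPM in TDECs and 0.145 ± 0.128 CPM in MBMECs, log2 fold change 8.61), Il34 (11.8 ± 1.41 CPM in TDECs and 0.104 ± 0.0338 CPM in MBMECs) and Cxcl14 (at least 564-fold higher). Of 23 tested members, 12 fell (52.2%, against 20.8% of all genes) and 6 rose (26.1%, against 28.1%). The share that rose thus lay near that of all genes.

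Tip cells are the leading cells of a vessel sprout. Of 20 tip cell genes tested, 12 fell (60%, against 20.8% of all genes) and 6 rose (30%, against 28.1%). Cxcr4, a chemokine receptor of tip cells and of glioma cells, averaged 11 ± 1.6 CPM in TDECs and no counts in MBMECs (at least 174-fold higher). Unc5b, a netrin receptor of tip cells, averaged 199.9 ± 5.5 CPM in TDECs and 35.4 ± 2.63 CPM in MBMECs (log2 fold change 2.49, SE 0.06). Esm1, a proteoglycan that marks tip cells, averaged 2.09 ± 0.807 CPM in TDECs and 0.418 ± 0.0525 CPM in MBMECs (log2 fold change 2.28, SE 0.39). Pdgfb, by which tip cells call pericytes, averaged 3.3 ± 0.64 CPM in TDECs and 76.4 ± 2.79 CPM in MBMECs (log2 fold change −4.52, SE 0.11).

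Neural and glial genes were mostly higher in TDECs. Of 23 astrocyte genes tested, 20 rose and 2 fell, with a median log2 fold change of 6.77 when genes without counts in a group stood at their bound. The glutamate transporter gene Slc1a3 had 664, 685 and 724 CPM in the TDEC libraries, against no counts in the MBMEC libraries. Ndrg2, a growth-restraining gene of astrocytes, had 189, 203 and 202 CPM in the TDEC libraries, against no counts in the MBMEC libraries. The TDEC libraries alone thus had counts of these genes. The glial filament gene Gfap averaged 32.1 ± 2.02 CPM in TDECs and 0.19 ± 0.132 CPM in MBMECs (log2 fold change 7.34, SE 0.21), and the water channel gene Aqp4 averaged 5.56 ± 1.57 CPM in TDECs and no counts in MBMECs (at least 88.2-fold higher). The 2 astrocyte genes that fell were the connexin gene Gja1 (37.5 ± 1.74 CPM in TDECs and 209 ± 9.24 CPM in MBMECs, log2 fold change −2.48, SE 0.06), which endothelium also uses, and S100b (0.515 ± 0.0714 CPM in TDECs and 3.62 ± 0.653 CPM in MBMECs).

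Oligodendrocyte lineage genes rose as well, among them factors that act early in the lineage. Olig1 averaged 219 ± 6.04 CPM in TDECs and 0.0218 ± 0.0378 CPM in MBMECs (10417-fold higher, counting interval 1869 to 411482), and Nkx2-2, another early factor, averaged 35.1 ± 2.13 CPM in TDECs and no counts in MBMECs (at least 557-fold higher). The proteoglycan gene Cspg4 of progenitors averaged 17.5 ± 2.55 CPM in TDECs and 0.0213 ± 0.0369 CPM in MBMECs (829-fold higher, counting interval 148 to 32783). The lineage factor Sox10 had 1 count over the TDEC libraries, and the myelin genes Mbp, Mag and Mog were each below 0.5 CPM in both groups. Of 16 tested, 12 rose and 1 fell, which was Gpr17 (107-fold lower, counting interval 29.4 to 889).

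Neuronal genes rose in 17 of 22 tested members (77.3%, against 28.1% of all genes) and fell in 4 (18.2%, against 20.8%). The microtubule protein gene Map2 averaged 279.98 ± 2.99 CPM in TDECs and no counts in MBMECs (at least 4449-fold higher), the adhesion molecule gene Ncam1 483 ± 12.1 CPM in TDECs and 3.37 ± 0.196 CPM in MBMECs (log2 fold change 7.16, SE 0.07) and the interneuron factor Dlx1 13.5 ± 1.1 CPM in TDECs and 0.673 ± 0.0659 CPM in MBMECs (log2 fold change 4.31, SE 0.21). The genes of the 2 enzymes that make GABA stood on opposite sides. Gad1 had 49.6, 52.3 and 50.4 CPM in the TDEC libraries, against no counts in the MBMEC libraries. Gad2 had 0.173, 0.159 and 0.238 CPM in the TDEC libraries, against 62.2, 60.3 and 59.4 CPM in the MBMEC libraries. Each gene was thus confined to, or nearly confined to, a different group of libraries. Rbfox3, the antigen of neuronal nuclei, stayed at 0.084 ± 0.0866 CPM in TDECs and at 0.0199 ± 0.0345 CPM in MBMECs.

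Receptors and channels followed. Of 30 tested genes for neurotransmitter receptors and ion channels 26 rose and none fell, where 28.1% of all genes rose and 20.8% fell. With ribosomal protein genes centred at 0, 1 of the list fell. The AMPA receptor subunit gene Gria2 averaged 77.6 ± 0.926 CPM in TDECs and no counts in MBMECs (at least 1234-fold higher), the metabotropic receptor gene Grm5 70.1 ± 4.37 CPM in TDECs and no counts in MBMECs (at least 1111-fold higher) and the calcium channel gene Cacna1c 95.3 ± 5.24 CPM in TDECs and 0.0218 ± 0.0378 CPM in MBMECs (4535-fold higher, counting interval 813 to 179181). The glial potassium channel gene Kcnj10 averaged 47.3 ± 1.46 CPM in TDECs and 0.105 ± 0.134 CPM in MBMECs (log2 fold change 8.7, SE 0.21). Gria3, another AMPA receptor subunit, averaged 16.4 ± 3.33 CPM in TDECs and 24.5 ± 2.93 CPM in MBMECs and was not called.

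Guidance and synaptic adhesion genes rose more often than all genes and fell at about the share of all genes. Of 51 tested genes, 33 rose (64.7%, against 28.1% of all genes) and 12 fell (23.5%, against 20.8%), at a median of 4.09. The Robo receptors of axons, Robo1 (at least 370-fold higher) and Robo2 (at least 191-fold higher), rose, and the endothelial Robo4 fell (0.372 ± 0.371 CPM in TDECs and 190.2 ± 9.51 CPM in MBMECs, log2 fold change −8.93, SE 0.14). Among Eph receptors, Ephb2 averaged 103 ± 4.38 CPM in TDECs and no counts in MBMECs (at least 1641-fold higher), whereas Ephb4, the receptor of veins, averaged 34.6 ± 3.69 CPM in TDECs and 437 ± 12.1 CPM in MBMECs (log2 fold change −3.65, SE 0.06). Epha2 averaged 17.9 ± 0.178 CPM in TDECs and 164 ± 5.59 CPM in MBMECs (log2 fold change −3.2, SE 0.06). Among semaphorins, Sema5a averaged 57.8 ± 1.36 CPM in TDECs and 0.145 ± 0.131 CPM in MBMECs (log2 fold change 8.54, SE 0.19) and Sema6d 285 ± 6.63 CPM in TDECs and 71 ± 5.54 CPM in MBMECs (log2 fold change 2.004, SE 0.05), while Sema3f averaged 60.5 ± 0.745 CPM in TDECs and 288 ± 15.2 CPM in MBMECs (log2 fold change −2.25, SE 0.05) and Sema3c 0.623 ± 0.216 CPM in TDECs and 32.2 ± 4.48 CPM in MBMECs (log2 fold change −5.66, SE 0.19). Among synaptic adhesion genes, 2 that rose were Nrxn2, at 244 ± 3.22 CPM in TDECs and at 0.248 ± 0.152 CPM in MBMECs (log2 fold change 9.87, SE 0.12), and Cadm1, at 101 ± 6.49 CPM in TDECs and no counts in MBMECs (at least 1610-fold higher).

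**Figure D2:**
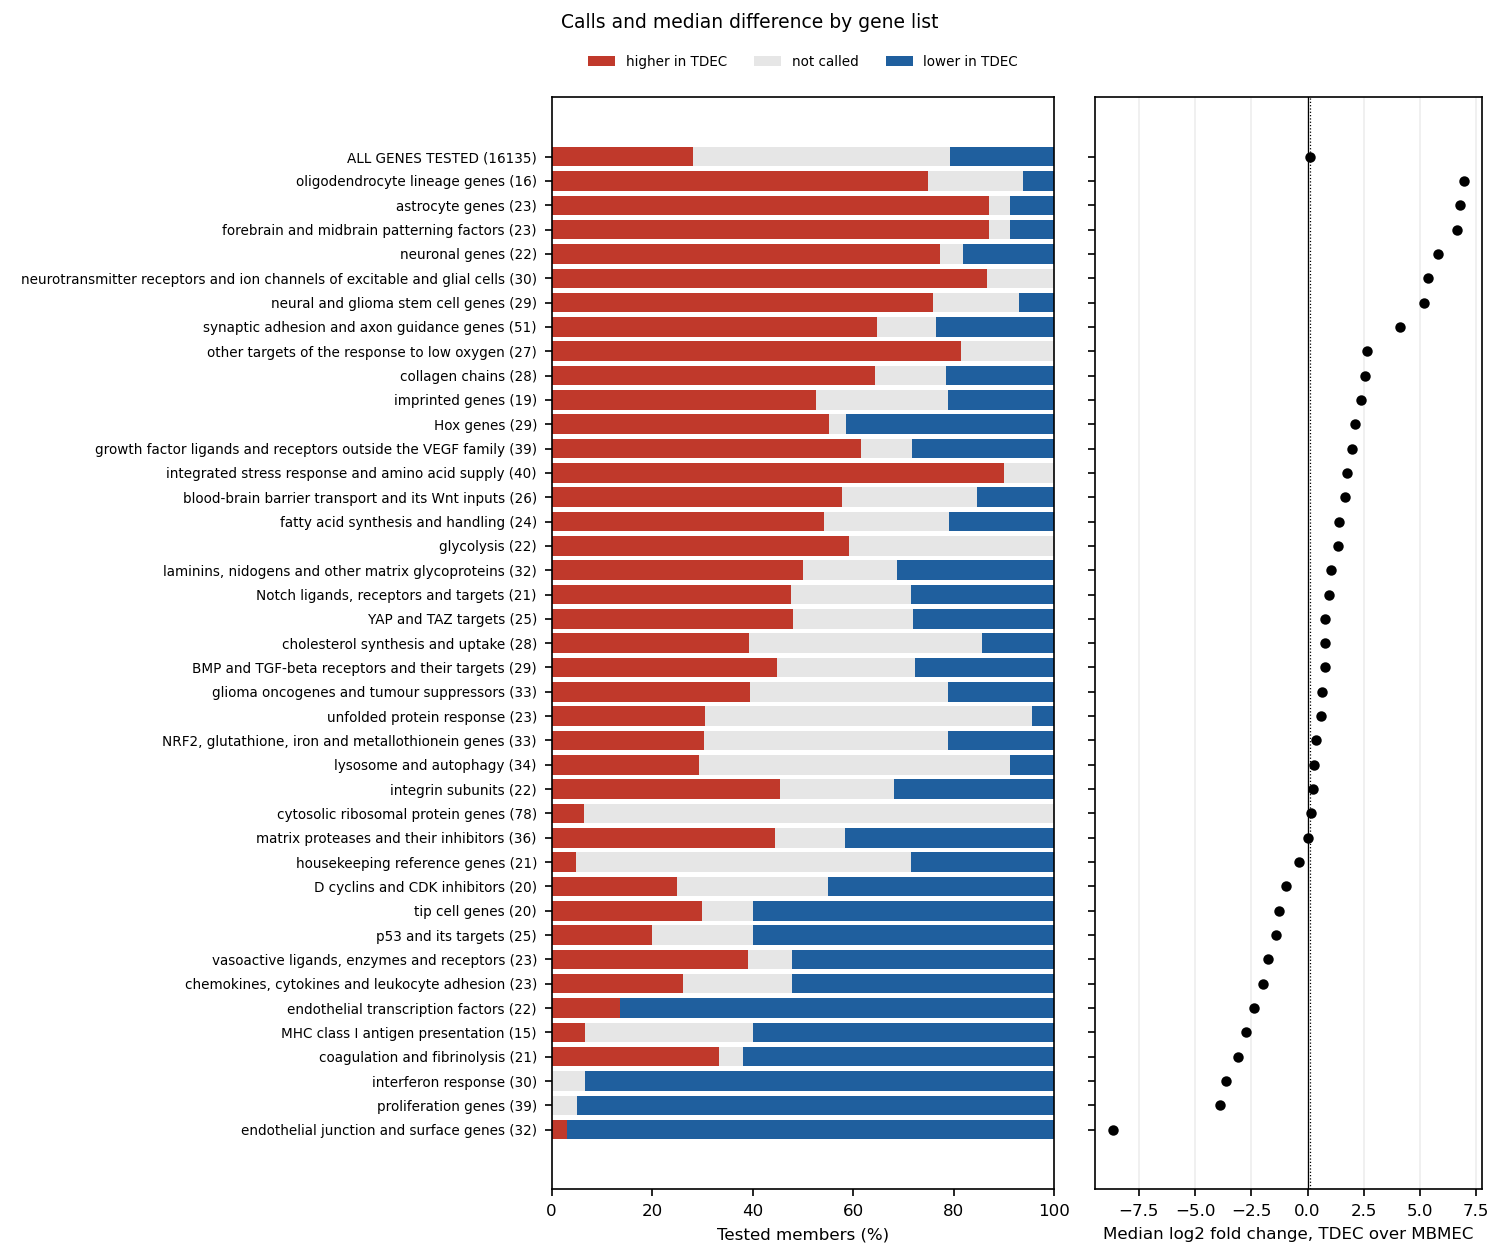
Share of tested members called higher (red) or lower (blue) in TDECs, with the number tested in brackets, and the median log2 fold change of each list with genes that lack counts in a group at their bound (dotted line, median of all genes, 0.09). Astrocyte genes lay at 6.77 and junction and surface genes at −8.65.

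TDECs, whose culture was at 1% oxygen, had higher levels of the genes that answer to low oxygen. Of 27 targets outside glycolysis 22 rose and none fell, with a median log2 fold change of 2.63. Ero1l, an oxidase of disulfide bond formation, had 1832, 1804 and 1839 CPM in the TDEC libraries, against 50.7, 51.8 and 43.2 CPM in the MBMEC libraries. Bnip3, a receptor for removal of mitochondria, had 360.5, 351 and 361 CPM in the TDEC libraries, against 18.4, 16.7 and 18.5 CPM in the MBMEC libraries. Egln1, the prolyl hydroxylase PHD2 that marks HIF, had 599, 601 and 589.6 CPM in the TDEC libraries, against 70.5, 68.6 and 62.4 CPM in the MBMEC libraries. In each gene the lowest TDEC library lay above the highest MBMEC library. The adenylate kinase gene Ak4 averaged 102 ± 2.97 CPM in TDECs and 1.23 ± 0.295 CPM in MBMECs (log2 fold change 6.36, SE 0.11), the collagen prolyl hydroxylase gene P4ha1 680.5 ± 16.6 CPM in TDECs and 147 ± 2.79 CPM in MBMECs (log2 fold change 2.22, SE 0.05) and the stanniocalcin gene Stc2 169 ± 6.66 CPM in TDECs and 0.233 ± 0.0821 CPM in MBMECs (log2 fold change 9.46, SE 0.13). The carbonic anhydrase genes Car9 and Car12 averaged 3.3 ± 0.473 CPM in TDECs and 0.104 ± 0.0338 CPM in MBMECs and 8.21 ± 1.09 CPM in TDECs and no counts in MBMECs.

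Not every target of the pathway rose. Egln3, which encodes the prolyl hydroxylase PHD3, averaged 128 ± 5.16 CPM in TDECs and 199 ± 9.76 CPM in MBMECs (log2 fold change −0.63, SE 0.05), Ndrg1 averaged 51.1 ± 4.095 CPM in TDECs and 75.1 ± 0.642 CPM in MBMECs (log2 fold change −0.55, SE 0.06), and Hilpda, a lipid droplet protein gene, averaged 12.6 ± 1.09 CPM in TDECs and 18 ± 1.3 CPM in MBMECs (log2 fold change −0.51, SE 0.11). None of these was called. The adrenomedullin gene Adm averaged 36.1 ± 0.547 CPM in TDECs and 22 ± 0.613 CPM in MBMECs (log2 fold change 0.71, SE 0.08, not called).

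Glycolysis genes rose in part, with 13 of 22 higher, 0 lower and a median of 1.36. Without MBMEC replicate 1, and likewise without replicate 3, 1 member was lower. At the entry of glucose, Slc2a3, the high-affinity transporter of neurons, had 226, 217 and 235 CPM in the TDEC libraries, against no counts in the MBMEC libraries. Hk2, the inducible hexokinase, had 217, 233 and 223 CPM in the TDEC libraries, against 11.2, 12.3 and 9.88 CPM in the MBMEC libraries, whereas the constitutive Hk1 averaged 414 ± 17.8 CPM in TDECs and 399.6 ± 4.86 CPM in MBMECs (log2 fold change 0.05, SE 0.04, not called). The regulatory enzyme gene Pfkfb3 averaged 482 ± 22.7 CPM in TDECs and 38.9 ± 3.04 CPM in MBMECs (log2 fold change 3.63, SE 0.06), and the isomerase gene Gpi1 3951 ± 70.2 CPM in TDECs and 539 ± 17.7 CPM in MBMECs (log2 fold change 2.87, SE 0.04). Isozymes of one step differed. Aldoc, the brain aldolase, averaged 176 ± 5.26 CPM in TDECs and 0.376 ± 0.0461 CPM in MBMECs (log2 fold change 8.83, SE 0.11), and Aldoa averaged 2119.7 ± 44.4 CPM in TDECs and 1326 ± 32.3 CPM in MBMECs (log2 fold change 0.68, SE 0.04, not called). Eno2, the neuronal enolase, averaged 49.5 ± 1.84 CPM in TDECs and 0.167 ± 0.0321 CPM in MBMECs (log2 fold change 8.13, SE 0.18), and Eno1 averaged 1219 ± 24.8 CPM in TDECs and 479.6 ± 15.6 CPM in MBMECs (log2 fold change 1.35, SE 0.04). At the exit, Pdk1, which holds pyruvate back from mitochondria, averaged 259 ± 8.24 CPM in TDECs and 19.99 ± 0.957 CPM in MBMECs (log2 fold change 3.69, SE 0.06), and Ldha averaged 1196 ± 15.9 CPM in TDECs and 955 ± 35.3 CPM in MBMECs (log2 fold change 0.32, SE 0.04, not called).

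The letters ACGTG, a form of the core that HIF binds, were searched on both strands in the 250 bases before the start of each gene in RefSeq's promoters (GRCm38.p6). No other form of the core was searched. Of the genes tested, 10875 had such a promoter, and 24.69% of them held the letters. Of the low-oxygen targets outside glycolysis 21 had a promoter and 13 held them, 10 of the 17 called and 3 of the 4 not called. Of the glycolysis genes 10 of 21 held them, 4 of the 12 called and 6 of the 9 not called. The stretches shown belong to 4 called genes and show where the letters lie, in capitals. Where CACGTG is in capitals, the letters read the same on both strands and also make an E-box, which MYC and other factors bind. The stretches lie at chr7:138909564-138909673, minus strand, for Bnip3, at chr8:124949273-124949382, minus strand, for Egln1, at chr4:101419453-101419562, plus strand, for Ak4, and at chr2:11553940-11554049, minus strand, for Pfkfb3.
Bnip3: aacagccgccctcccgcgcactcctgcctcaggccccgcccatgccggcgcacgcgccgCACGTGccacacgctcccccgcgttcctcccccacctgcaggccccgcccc
Egln1: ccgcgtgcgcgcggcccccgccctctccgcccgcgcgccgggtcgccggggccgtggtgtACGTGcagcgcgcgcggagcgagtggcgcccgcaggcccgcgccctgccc
Ak4: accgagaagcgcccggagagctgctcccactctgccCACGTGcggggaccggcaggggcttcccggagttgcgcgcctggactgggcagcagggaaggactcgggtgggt
Pfkfb3: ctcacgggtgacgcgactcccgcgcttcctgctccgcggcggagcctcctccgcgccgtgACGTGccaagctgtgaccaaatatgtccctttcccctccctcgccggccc

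The integrated stress response, in which ATF4 raises amino acid supply when translation is slowed, stood higher in TDECs almost throughout. Of 40 genes tested 36 rose and none fell, with a median log2 fold change of 1.77. Cbs and Cth, which make cysteine from homocysteine, averaged 161 ± 2.01 CPM in TDECs and 3.98 ± 1.14 CPM in MBMECs (log2 fold change 5.32, SE 0.09) and 46.4 ± 2.1 CPM in TDECs and 0.81 ± 0.283 CPM in MBMECs (log2 fold change 5.81, SE 0.15). Asns, asparagine synthetase, had 273, 284 and 287 CPM in the TDEC libraries, against 35.3, 34.3 and 33.2 CPM in the MBMEC libraries. Chac1, which breaks down glutathione, had 82.4, 76.3 and 79 CPM in the TDEC libraries, against 5.14, 7.6 and 6.09 CPM in the MBMEC libraries. Trib3, a pseudokinase that ATF4 induces, had 139, 131 and 134 CPM in the TDEC libraries, against 7.54, 6.58 and 8.51 CPM in the MBMEC libraries. The TDEC libraries were above the MBMEC libraries in all of them.

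Among the factors at the head of the response, Atf4 itself averaged 532 ± 8.41 CPM in TDECs and 236 ± 1.16 CPM in MBMECs (log2 fold change 1.17, SE 0.04), Ddit3, which encodes CHOP, 204 ± 9.77 CPM in TDECs and 26.5 ± 1.55 CPM in MBMECs (log2 fold change 2.95, SE 0.06) and Atf3 68.7 ± 3.27 CPM in TDECs and 21.7 ± 0.387 CPM in MBMECs (log2 fold change 1.66, SE 0.07). The serine pathway genes Phgdh, Psat1 and Psph rose by 1.59, 1.28 and 1.73 on the log2 scale. Transfer RNA synthetase genes rose modestly, among them Eprs (log2 fold change 1.82, SE 0.05), Sars (log2 fold change 1.78, SE 0.04) and Wars (log2 fold change 1.5, SE 0.05). The amino acid transporter gene Slc6a9, which carries glycine, averaged 130.4 ± 3.74 CPM in TDECs and 4.42 ± 0.32 CPM in MBMECs (log2 fold change 4.88, SE 0.08), and the cystine transporter gene Slc7a11 averaged 210.02 ± 7.93 CPM in TDECs and 35.8 ± 2.16 CPM in MBMECs (log2 fold change 2.55, SE 0.06). The hormone gene Fgf21 averaged 3.56 ± 0.851 CPM in TDECs and no counts in MBMECs (at least 56.2-fold higher). Members that did not pass included Slc38a2 (489.8 ± 10.4 CPM in TDECs and 598 ± 30.1 CPM in MBMECs) and Gdf15 (4.21 ± 0.844 CPM in TDECs and 4.7 ± 0.704 CPM in MBMECs).

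The composite element that ATF4 binds together with C/EBP proteins was searched as TGATGNAA on both strands, where N is any base. It occurred in 2.363% of all 10875 promoters and in 10 of 32 stress response genes with a promoter, all 10 among the 30 called. The stretches of 4 called genes are shown with the element in capitals, either as written or as its reverse complement TTNCATCA. They lie at chr6:7693210-7693319, minus strand, for Asns, at chr2:119350992-119351101, plus strand, for Chac1, at chr1:191183391-191183500, minus strand, for Atf3, and at chr7:126625528-126625637, minus strand, for Nupr1, a small stress-induced chromatin protein gene (87.3 ± 4.62 CPM in TDECs and 6.47 ± 0.468 CPM in MBMECs).
Asns: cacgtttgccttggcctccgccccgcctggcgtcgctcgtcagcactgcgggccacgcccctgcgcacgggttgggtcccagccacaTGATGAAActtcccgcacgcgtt
Chac1: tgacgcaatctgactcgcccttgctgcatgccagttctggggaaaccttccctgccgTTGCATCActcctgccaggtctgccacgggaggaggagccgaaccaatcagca
Atf3: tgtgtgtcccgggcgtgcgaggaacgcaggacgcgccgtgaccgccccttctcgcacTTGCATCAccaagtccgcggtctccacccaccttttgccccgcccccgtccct
Nupr1: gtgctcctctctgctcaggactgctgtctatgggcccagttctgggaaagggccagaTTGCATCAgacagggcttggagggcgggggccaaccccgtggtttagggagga

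The unfolded protein response, which adjusts folding capacity of the endoplasmic reticulum, was called higher at about the share of all genes. Of 23 tested, 7 rose (30.4%, against 28.1% of all genes), 1 fell and the median was 0.57. Hspa5, the chaperone BiP, had 3094, 3232 and 3443 CPM in the TDEC libraries, against 827, 872 and 866 CPM in the MBMEC libraries. The co-chaperone gene Dnajb9 averaged 99.5 ± 2.32 CPM in TDECs and 21.2 ± 1.95 CPM in MBMECs (log2 fold change 2.23, SE 0.07), and Herpud1, a part of the disposal machinery, averaged 128 ± 10.8 CPM in TDECs and 26.5 ± 0.574 CPM in MBMECs (log2 fold change 2.28, SE 0.07). Derl3 averaged 5.57 ± 0.557 CPM in TDECs and 0.159 ± 0.276 CPM in MBMECs (log2 fold change 4.98, SE 0.44). The sensor gene Ern1 and the folding enzyme gene Pdia4 were not called, with Ern1 at 70.001 ± 2.15 CPM in TDECs and at 48.9 ± 1.07 CPM in MBMECs and Pdia4 at 318 ± 4.79 CPM in TDECs and at 189.8 ± 3.9 CPM in MBMECs, and the translocon subunit gene Sec61b fell (log2 fold change −1.5, SE 0.07).

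Interferon-stimulated genes stood far lower in TDECs than in MBMECs. Of 30 tested 28 fell and none rose, at a median log2 fold change of −3.67, or −3.62 with genes lacking counts at their bound. Ly6a, the surface antigen Sca-1 of mouse endothelium, had 0, 0 and 0.0792 CPM in the TDEC libraries, against 616, 614 and 646 CPM in the MBMEC libraries. Bst2, tetherin, which holds budding viruses to the cell, had 0.519, 0.876 and 0.475 CPM in the TDEC libraries, against 342, 337 and 359.7 CPM in the MBMEC libraries. Ifitm3, an inhibitor of viral entry, had 48.9, 49.9 and 51.5 CPM in the TDEC libraries, against 409, 357 and 443 CPM in the MBMEC libraries. The MBMEC libraries were the higher ones throughout. Among sensors of viral RNA, Ddx58 averaged 8.105 ± 0.811 CPM in TDECs and 91.3 ± 1.56 CPM in MBMECs (log2 fold change −3.5, SE 0.08) and Ifih1 0.904 ± 0.207 CPM in TDECs and 6.59 ± 0.691 CPM in MBMECs (log2 fold change −2.86, SE 0.24). Among transducers, Stat2 averaged 23.7 ± 1.85 CPM in TDECs and 52.1 ± 3.18 CPM in MBMECs (log2 fold change −1.14, SE 0.08) and Irf7 0.991 ± 0.34 CPM in TDECs and 14.2 ± 2.83 CPM in MBMECs (log2 fold change −3.85, SE 0.23), while Irf9 averaged 22.3 ± 1.86 CPM in TDECs and 25.5 ± 2.58 CPM in MBMECs (log2 fold change −0.19, SE 0.09, not called). Effectors with few or no counts in TDECs were Oas1a (no counts in TDECs and 19.99 ± 1.19 CPM in MBMECs, at least 244-fold lower), Rtp4 (0.0264 ± 0.0457 CPM in TDECs and 23.6 ± 2.82 CPM in MBMECs, 867-fold lower, counting interval 155 to 34293) and Ifit3 (0.0264 ± 0.0457 CPM in TDECs and 11.8 ± 3.69 CPM in MBMECs, 430.3-fold lower, counting interval 76.9 to 17025).

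The interferon-stimulated response element was searched as GAAA, any 2 bases and GAAA again, on both strands, and occurred in 3.062% of all 10875 promoters. It occurred in 11 of 21 interferon genes with a promoter, 10 of the 19 called and 1 of the 2 not called. The stretches of 4 called genes follow with the element in capitals, as written or as its reverse complement with TTTC, and overlapping copies run together. They lie at chr4:156200830-156200939, minus strand, for Isg15, at chr19:34640749-34640858, plus strand, for Ifit1, at chr5:120907526-120907635, minus strand, for Oas1a, and at chr8:71537542-71537651, minus strand, for Bst2. Isg15, a ubiquitin-like modifier, averaged 0.327 ± 0.0163 CPM in TDECs and 8.99 ± 3.16 CPM in MBMECs (log2 fold change −4.74, SE 0.34), and Ifit1, which binds viral RNA, averaged 0.115 ± 0.1997 CPM in TDECs and 15.5 ± 4.23 CPM in MBMECs (log2 fold change −7.04, SE 0.39).
Isg15: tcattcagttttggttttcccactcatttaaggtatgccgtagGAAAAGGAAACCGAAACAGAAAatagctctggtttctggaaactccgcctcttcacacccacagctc
Ifit1: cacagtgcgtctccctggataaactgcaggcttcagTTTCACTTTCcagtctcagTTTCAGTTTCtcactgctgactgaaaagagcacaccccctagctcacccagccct
Oas1a: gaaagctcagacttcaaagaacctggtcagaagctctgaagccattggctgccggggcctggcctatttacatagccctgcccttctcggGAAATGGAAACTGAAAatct
Bst2: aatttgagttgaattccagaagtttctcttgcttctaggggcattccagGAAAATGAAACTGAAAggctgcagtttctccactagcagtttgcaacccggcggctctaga

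Antigen presentation by MHC class I fell in 9 of 15 tested genes and rose in 1, or in 2 without TDEC replicate 1. The transporter genes Tap1 and Tap2, which load peptides, averaged 1.68 ± 0.484 CPM in TDECs and 21.2 ± 0.799 CPM in MBMECs (log2 fold change −3.65, SE 0.16) and 1.93 ± 0.0482 CPM in TDECs and 22.2 ± 1.35 CPM in MBMECs (log2 fold change −3.51, SE 0.15). Psmb8, a subunit of the immunoproteasome, averaged 0.0528 ± 0.0914 CPM in TDECs and 5.19 ± 0.613 CPM in MBMECs (95.6-fold lower, counting interval 26.2 to 794). The heavy chain genes went apart, with H2-D1 at 8.87 ± 2.27 CPM in TDECs and at 528 ± 37.6 CPM in MBMECs (log2 fold change −5.89, SE 0.09) and H2-K1 at 68.2 ± 2.205 CPM in TDECs and at 9.32 ± 0.922 CPM in MBMECs (log2 fold change 2.87, SE 0.08). These chains are near copies of each other, and how reads with several matches were counted is not stated, so their split is uncertain. The light chain gene B2m averaged 132 ± 5.29 CPM in TDECs and 238 ± 7.97 CPM in MBMECs and was not called.

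**Figure D3:**
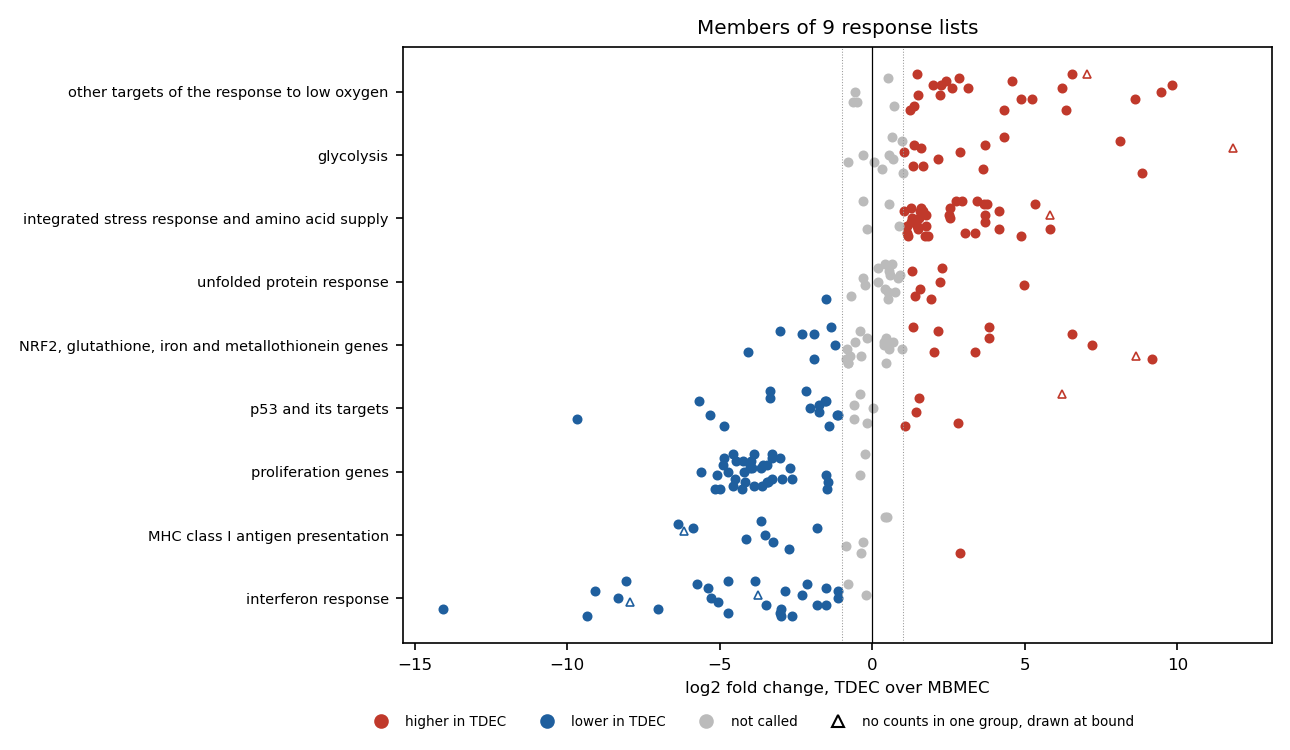
Log2 fold change, TDEC over MBMEC, of every tested member of 9 response lists, with calls higher in red, lower in blue and not called in grey, and open triangles for genes drawn at their bound. The 36 called stress response genes lie to the right and the 28 called interferon genes to the left.

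Lipid genes rose in part of each pathway. Of 28 genes of cholesterol synthesis and uptake 11 rose (39.3%, against 28.1% of all genes). Another 4 fell (14.3%, against 20.8%), and the median was 0.77. Sqle, squalene epoxidase, averaged 260.5 ± 7.53 CPM in TDECs and 90.7 ± 4.35 CPM in MBMECs (log2 fold change 1.52, SE 0.05). The export genes fell, Abca1 to 48.5 ± 2.62 CPM in TDECs, against 127 ± 9.14 CPM in MBMECs (log2 fold change −1.39, SE 0.06) and Abcg1 to 0.0552 ± 0.048 CPM in TDECs, against 17.6 ± 2.15 CPM in MBMECs (323-fold lower, counting interval 89.1 to 2669). In the fatty acid list 13 of 24 rose (54.2%) and 5 fell (20.8%, the share of all genes). The desaturase gene Scd2 averaged 2533 ± 39.8 CPM in TDECs and 673 ± 24.2 CPM in MBMECs (log2 fold change 1.91, SE 0.04), whereas Fasn, fatty acid synthase, averaged 258 ± 8.51 CPM in TDECs and 359 ± 7.15 CPM in MBMECs (log2 fold change −0.48, SE 0.05, not called). Gpihbp1, which carries lipoprotein lipase across capillaries, averaged no counts in TDECs and 19.6 ± 2.82 CPM in MBMECs (at least 240-fold lower), and Lpl, the lipase, averaged 30.6 ± 1.11 CPM in TDECs and 0.0418 ± 0.0363 CPM in MBMECs (730.1-fold higher, counting interval 202 to 6036).

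Metal-binding and redox genes did not move as a block. The metallothionein genes Mt1, Mt2 and Mt3, whose products bind zinc and copper, had 301, 277 and 230.2 CPM in the TDEC libraries, against 2.09, 1.53 and 1.77 CPM in the MBMEC libraries; 423, 406 and 344 CPM in the TDEC libraries, against 0.777, 0.383 and 0.851 CPM in the MBMEC libraries; and 158, 155 and 124 CPM in the TDEC libraries, against 1.32, 1.34 and 2.03 CPM in the MBMEC libraries. The MBMEC libraries held at most a few CPM of any of them. Ferritin changed its chains. Fth1, the heavy chain that oxidises iron, averaged 9497 ± 52.2 CPM in TDECs and 2355 ± 75.9 CPM in MBMECs (log2 fold change 2.01, SE 0.04), and Ftl1, the light chain, averaged 1302 ± 26.7 CPM in TDECs and 3332 ± 92.9 CPM in MBMECs (log2 fold change −1.36, SE 0.04). The NRF2 target Nqo1 averaged 8.33 ± 0.954 CPM in TDECs and 141 ± 2.16 CPM in MBMECs (log2 fold change −4.08, SE 0.08), while Gclc, the limiting step of glutathione synthesis, averaged 297 ± 8.88 CPM in TDECs and 66.6 ± 2.49 CPM in MBMECs (log2 fold change 2.16, SE 0.05) and Hmox1, heme oxygenase, 1424 ± 18.4 CPM in TDECs and 569.6 ± 7.02 CPM in MBMECs (log2 fold change 1.32, SE 0.04). Over 33 tested genes 10 rose (30.3%) and 7 fell (21.2%), and among lysosome and autophagy genes 10 of 34 rose (29.4%) and 3 fell. These shares higher lay near the 28.1% of all genes. Gaa, the lysosomal glucosidase that digests glycogen, averaged 539.6 ± 22.4 CPM in TDECs and 83.6 ± 0.683 CPM in MBMECs (log2 fold change 2.69, SE 0.05), and Gpnmb, a membrane glycoprotein, had counts in TDECs alone (at least 198-fold higher), while the cathepsin gene Ctsd averaged 235 ± 6.3 CPM in TDECs and 650.02 ± 41.7 CPM in MBMECs (log2 fold change −1.47, SE 0.05).

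Of 20 genes for D cyclins, CDK inhibitors and their partners 5 rose (25%, against 28.1% of all genes). Another 9 fell (45%, against 20.8%). Cdkn2a, which encodes p16INK4a and p19ARF and cannot be split into these products in gene counts, had 663, 646 and 609 CPM in the TDEC libraries, against 39.2, 35.1 and 38.4 CPM in the MBMEC libraries. Its neighbour Cdkn2b, which encodes p15INK4b, averaged 114 ± 3.5 CPM in TDECs and 26.9 ± 1.01 CPM in MBMECs (log2 fold change 2.09, SE 0.06), and Cdkn1b, p27KIP1, averaged 212 ± 7.84 CPM in TDECs and 60.5 ± 3.39 CPM in MBMECs (log2 fold change 1.81, SE 0.05). Cdkn1a, p21CIP1, went the other way, at 204 ± 8.13 CPM in TDECs and at 445 ± 19.5 CPM in MBMECs (log2 fold change −1.13, SE 0.05). Among D cyclins, Ccnd2 averaged 1719.5 ± 6.17 CPM in TDECs and 84.5 ± 5.11 CPM in MBMECs (log2 fold change 4.35, SE 0.05), Ccnd3 67.2 ± 1.87 CPM in TDECs and 150.2 ± 10.04 CPM in MBMECs (log2 fold change −1.16, SE 0.06), and Ccnd1 1415 ± 22.3 CPM in TDECs and 2795 ± 89.7 CPM in MBMECs (log2 fold change −0.98, SE 0.04, not called). Of 39 proliferation genes 37 were lower, at a median of −3.88.

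Targets of p53 were mostly lower, 15 of 25 (60%, against 20.8% of all genes). Another 5 were higher (20%, against 28.1%), and the median was −1.42. Trp53 itself averaged 74.3 ± 1.69 CPM in TDECs and 198 ± 4.51 CPM in MBMECs (log2 fold change −1.42, SE 0.05). Ccng1, a direct target, had 46.4, 42.9 and 42.4 CPM in the TDEC libraries, against 462, 457 and 424 CPM in the MBMEC libraries. Eda2r, a death receptor, had 0.173, 0 and 0.158 CPM in the TDEC libraries, against 94.7, 101 and 93.3 CPM in the MBMEC libraries. Both were high in all MBMEC libraries. Phlda3, an inhibitor of AKT, averaged 10.04 ± 1.75 CPM in TDECs and 295 ± 15.4 CPM in MBMECs (log2 fold change −4.87, SE 0.08), and Mdm2, the ligase of p53, 109 ± 6.75 CPM in TDECs and 315 ± 24.4 CPM in MBMECs (log2 fold change −1.54, SE 0.06). Sesn1 rose, an antioxidant target shared with FOXO factors (63.9 ± 2.59 CPM in TDECs and 9.17 ± 0.721 CPM in MBMECs, log2 fold change 2.8, SE 0.08). Among glioma oncogenes and tumour suppressors 13 of 33 rose (39.4%, against 28.1% of all genes) and 7 fell (21.2%, against 20.8%). Of those that rose, Nf1 averaged 144 ± 5.28 CPM in TDECs and 32.6 ± 2.188 CPM in MBMECs (log2 fold change 2.14, SE 0.06) and Egfr 14.7 ± 0.374 CPM in TDECs and 2.07 ± 0.698 CPM in MBMECs (log2 fold change 2.82, SE 0.18).

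Growth factors and their receptors outside the VEGF family rose in 24 of 39 tested members (61.5%, against 28.1% of all genes). Another 11 fell (28.2%, against 20.8%). Ptn, pleiotrophin, a ligand of PTPRZ1 and ALK, had 176, 177 and 168 CPM in the TDEC libraries, against no counts in the MBMEC libraries. Its receptor gene Alk averaged 4.69 ± 0.683 CPM in TDECs and no counts in MBMECs (at least 74.4-fold higher). Igfbp5, an IGF carrier, had 438, 449 and 451 CPM in the TDEC libraries, against 0, 0.0638 and 0.262 CPM in the MBMEC libraries. The IGF receptor gene Igf1r averaged 254 ± 18.5 CPM in TDECs and 23 ± 1.38 CPM in MBMECs (log2 fold change 3.46, SE 0.06), and the clearing receptor gene Igf2r 219 ± 10.6 CPM in TDECs and 3.79 ± 0.289 CPM in MBMECs (log2 fold change 5.85, SE 0.08), whereas the ligand gene Igf2 averaged 1.86 ± 0.373 CPM in TDECs and 62.8 ± 6.66 CPM in MBMECs (log2 fold change −5.08, SE 0.13). The neurotrophin receptor gene Ntrk3 averaged 104 ± 1.29 CPM in TDECs and no counts in MBMECs (at least 1650-fold higher). In the EGF family, Areg averaged 28.2 ± 1.94 CPM in TDECs and 1.12 ± 0.521 CPM in MBMECs (log2 fold change 4.63, SE 0.18), while Ereg averaged 0.464 ± 0.203 CPM in TDECs and 30.1 ± 3.93 CPM in MBMECs (log2 fold change −5.996, SE 0.21), Tgfa 2.93 ± 0.636 CPM in TDECs and 55.2 ± 1.56 CPM in MBMECs (log2 fold change −4.23, SE 0.11) and Nrg1 0.873 ± 0.207 CPM in TDECs and 110.4 ± 13.9 CPM in MBMECs (log2 fold change −6.97, SE 0.14).

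The matrix that each culture expressed was different in kind. Of 28 collagen chain genes 18 rose (64.3%, against 28.1% of all genes) and 6 fell (21.4%, near the 20.8% of all genes). Col16a1 averaged 79.2 ± 6.71 CPM in TDECs and no counts in MBMECs (at least 1258-fold higher) and Col6a1 58.9 ± 4.6 CPM in TDECs and 0.782 ± 0.192 CPM in MBMECs (log2 fold change 6.23, SE 0.14). Col4a1, the main network chain of vascular basement membrane, averaged 211 ± 18 CPM in TDECs and 2256 ± 122 CPM in MBMECs (log2 fold change −3.42, SE 0.06), and Col8a1, a collagen of vessel walls, 1.23 ± 0.327 CPM in TDECs and 468 ± 7.11 CPM in MBMECs (log2 fold change −8.57, SE 0.09). Proteoglycans of brain matrix rose, Bcan, brevican, to 307 ± 5.21 CPM in TDECs, against 0.0636 ± 0.0655 CPM in MBMECs (4886-fold higher, counting interval 1671 to 23695) and Vcan, versican, to 208 ± 2.9 CPM in TDECs, against 1.25 ± 0.246 CPM in MBMECs (log2 fold change 7.38, SE 0.09), as did the fibrillin gene Fbn2 (271 ± 4.66 CPM in TDECs and no counts in MBMECs, at least 4305-fold higher). Fn1, fibronectin, averaged 492 ± 29.2 CPM in TDECs and 1497 ± 146 CPM in MBMECs (log2 fold change −1.61, SE 0.06), and Hspg2, perlecan, averaged 101 ± 2.13 CPM in TDECs and 430.2 ± 19.5 CPM in MBMECs (log2 fold change −2.09, SE 0.05). The tenascin gene Tnc stood at 625 ± 24.1 CPM in TDECs and at 585 ± 40.8 CPM in MBMECs (log2 fold change 0.097, SE 0.05, not called).

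Receptors for these proteins shifted as well. Itgb8, a glial integrin subunit that frees TGF-beta, averaged 26.1 ± 3.85 CPM in TDECs and no counts in MBMECs (at least 412-fold higher), and its partner Itgav averaged 221 ± 4.71 CPM in TDECs and 78.9 ± 6.705 CPM in MBMECs (log2 fold change 1.49, SE 0.06). Itgb3, the vascular partner of the same chain, averaged 3.26 ± 0.196 CPM in TDECs and 331 ± 2.9 CPM in MBMECs (log2 fold change −6.66, SE 0.08), and Itgb4 averaged 4.4 ± 1.26 CPM in TDECs and 303 ± 18.5 CPM in MBMECs (log2 fold change −6.1, SE 0.09). The common subunit Itgb1 averaged 1371 ± 20.9 CPM in TDECs and 1413 ± 35.5 CPM in MBMECs (log2 fold change −0.04, SE 0.04, not called). Among proteases and inhibitors 16 of 36 rose (44.4%, against 28.1% of all genes) and 15 fell (41.7%, against 20.8%). Adamts1 averaged 103 ± 4.54 CPM in TDECs and 1178 ± 47.2 CPM in MBMECs (log2 fold change −3.51, SE 0.05) and Mmp3 no counts in TDECs and 37.5 ± 2.1 CPM in MBMECs (at least 459-fold lower), while Loxl2, a crosslinking oxidase, averaged 119.7 ± 6.55 CPM in TDECs and 4.995 ± 1.06 CPM in MBMECs (log2 fold change 4.59, SE 0.09). Of 25 YAP and TAZ targets, 12 were higher (48%, against 28.1% of all genes) and 7 lower (28%, against 20.8%). Ankrd1 stood at 0.329 ± 0.0979 CPM in TDECs and at 28 ± 1.42 CPM in MBMECs (log2 fold change −6.38, SE 0.1997). Crim1 stood at 91 ± 2.27 CPM in TDECs and at 616 ± 41.5 CPM in MBMECs (log2 fold change −2.76, SE 0.05), and Gadd45a at 175 ± 11.3 CPM in TDECs and at 12.2 ± 1.46 CPM in MBMECs (log2 fold change 3.84, SE 0.07).

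Position genes differed by cluster. Hox genes are laid out in 4 clusters and record the place of a cell along the body axis, and forebrain cells normally lack them. Of 29 tested 16 rose (55.2%, against 28.1% of all genes) and 12 fell (41.4%, against 20.8%). Every tested Hoxb gene was lower, from Hoxb2 (at least 19.8-fold lower) to Hoxb8, which had no counts in the TDEC libraries, against 193, 174 and 194 CPM in the MBMEC libraries. Tested Hoxc genes all had counts in TDECs alone, and Hoxc4 averaged 9.66 ± 0.608 CPM in TDECs and no counts in MBMECs (at least 153-fold higher). Hoxa genes rose or were not called, with Hoxa5 at 31.8 ± 2.79 CPM in TDECs and at 3.1 ± 0.137 CPM in MBMECs (log2 fold change 3.35, SE 0.12) and Hoxa7 at 19.3 ± 1.12 CPM in TDECs and at 14.9 ± 1.69 CPM in MBMECs (log2 fold change 0.37, SE 0.11, not called). The Hoxd cluster split, with Hoxd13 at 13.7 ± 0.272 CPM in TDECs and no counts in MBMECs (at least 217-fold higher) and Hoxd8 at 33.1 ± 2.8 CPM in TDECs and at 191 ± 7.86 CPM in MBMECs (log2 fold change −2.53, SE 0.06). TDECs also carried factors of the fore- and midbrain, 20 of 23 tested being higher and 2 lower. Pou3f3 averaged 412 ± 16.2 CPM in TDECs and no counts in MBMECs (at least 6533-fold higher), and En2, a factor of the midbrain border, 16.6 ± 0.794 CPM in TDECs and no counts in MBMECs (at least 263-fold higher).

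Imprinted genes, of which cells usually read a single parental copy, rose in 10 of 19 and fell in 4. The share higher was 52.6%, against 28.1% of all genes, and the share lower was 21.1%, near the 20.8% of all genes. Grb10, an adaptor that restrains growth signals, had no counts in the TDEC libraries, against 368, 377 and 370.00 CPM in the MBMEC libraries. Peg3 averaged 36.6 ± 2.57 CPM in TDECs and 0.776 ± 0.05505 CPM in MBMECs (log2 fold change 5.54, SE 0.15), Peg10 168 ± 1.92 CPM in TDECs and 15.7 ± 2.04 CPM in MBMECs (log2 fold change 3.42, SE 0.07) and Mest 107 ± 5.32 CPM in TDECs and 480.2 ± 5.12 CPM in MBMECs (log2 fold change −2.17, SE 0.05). Both groups had counts of Y-linked genes and all but none of Xist, the RNA of the inactive X chromosome. Ddx3y averaged 22.3 ± 2.41 CPM in TDECs and 144 ± 10.9 CPM in MBMECs (log2 fold change −2.69, SE 0.07), Uty 4.88 ± 1.43 CPM in TDECs and 23.3 ± 1.29 CPM in MBMECs (log2 fold change −2.26, SE 0.14) and Xist 0.379 ± 0.318 CPM in TDECs and 0.0811 ± 0.0909 CPM in MBMECs, and 4 of 4 tested genes of this list fell.

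Relatives within a family could stand on opposite sides. Of 30 families set out, 18 had at least 1 member called on each side. Among all genes tested 28.1% were called higher and 20.8% lower, so a family of several members can easily hold both. Whether 18 lies above what these shares give was not tested. Of the 9 cadherins that rose, the highest by level was Cdh2, N-cadherin (247 ± 11.1 CPM in TDECs and 54.4 ± 5.95 CPM in MBMECs, log2 fold change 2.18, SE 0.06), against a fall of Cdh5 alone. The Sox family had 10 members higher and 4 lower, among the lower Sox7 (log2 fold change −8.5) and Sox13 (log2 fold change −4.66, SE 0.07). The vascular connexins Gja4 (log2 fold change −5.31, SE 0.501) and Gja5 (log2 fold change −5.79, SE 0.13) fell. Fabp5 averaged 68.1 ± 2.02 CPM in TDECs and 18.9 ± 1.09 CPM in MBMECs (log2 fold change 1.85, SE 0.07), and Fabp4, the form of capillaries and fat, 0.166 ± 0.144 CPM in TDECs and 7.57 ± 0.497 CPM in MBMECs (log2 fold change −5.46, SE 0.35).

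The cytoskeleton gave further examples. Vim, vimentin, averaged 562 ± 20.8 CPM in TDECs and 3610.3 ± 127 CPM in MBMECs (log2 fold change −2.68, SE 0.04). The neurofilament genes Nefl (log2 fold change −4.02, SE 0.196) and Nefm (log2 fold change −1.29, SE 0.197) fell as well. Nefh, another neurofilament gene, rose on few counts, 36 over the TDEC libraries and 8 over the MBMEC libraries. It averaged 0.981 ± 0.24 CPM in TDECs and 0.165 ± 0.121 CPM in MBMECs (log2 fold change 2.49, SE 0.53). Tubb3, the neuronal beta tubulin, averaged 28 ± 2.34 CPM in TDECs and 1.04 ± 0.336 CPM in MBMECs (log2 fold change 4.73, SE 0.17), while Tubb6 averaged 51.8 ± 2.63 CPM in TDECs and 489 ± 7.98 CPM in MBMECs (log2 fold change −3.24, SE 0.05). Annexins, which bind membranes with calcium, fell in 7 of 8, with Anxa1 at 3.63 ± 0.76 CPM in TDECs and at 246 ± 0.886 CPM in MBMECs (log2 fold change −6.08, SE 0.08) and Anxa3 at 0.0793 ± 0.0792 CPM in TDECs and at 444 ± 4.49 CPM in MBMECs (5439.7-fold lower, counting interval 1861 to 26379.8), whereas Anxa6 averaged 143 ± 5.5 CPM in TDECs and 39.5 ± 1.59 CPM in MBMECs (log2 fold change 1.85, SE 0.06). All 8 tested S100 genes fell, among them S100a6 (0.447 ± 0.37 CPM in TDECs and 1083 ± 40.9 CPM in MBMECs, log2 fold change −11.25, SE 0.11). Timp4, a protease inhibitor of brain and heart, averaged 85.4 ± 3.5 CPM in TDECs and 0.562 ± 0.137 CPM in MBMECs (log2 fold change 7.21, SE 0.13), against 121 ± 5.56 CPM in TDECs and 685 ± 14.1 CPM in MBMECs for Timp3 (log2 fold change −2.5, SE 0.05). Aqp1, a water channel of vessels, averaged 2.37 ± 0.271 CPM in TDECs and 281 ± 33.1 CPM in MBMECs (log2 fold change −6.89, SE 0.11), and Aqp9 2.34 ± 0.942 CPM in TDECs and 0.0199 ± 0.0345 CPM in MBMECs (113-fold higher, counting interval 19.7 to 4507). Fxyd5 averaged 0.11 ± 0.0959 CPM in TDECs and 224 ± 6.21 CPM in MBMECs (log2 fold change −10.89, SE 0.14), and Fxyd6, another regulator of the sodium pump, 17.1 ± 1.84 CPM in TDECs and no counts in MBMECs (at least 272-fold higher). Some families moved as a whole, with all 5 monocarboxylate transporter genes and all 3 enolase genes higher.

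**Figure D4:**
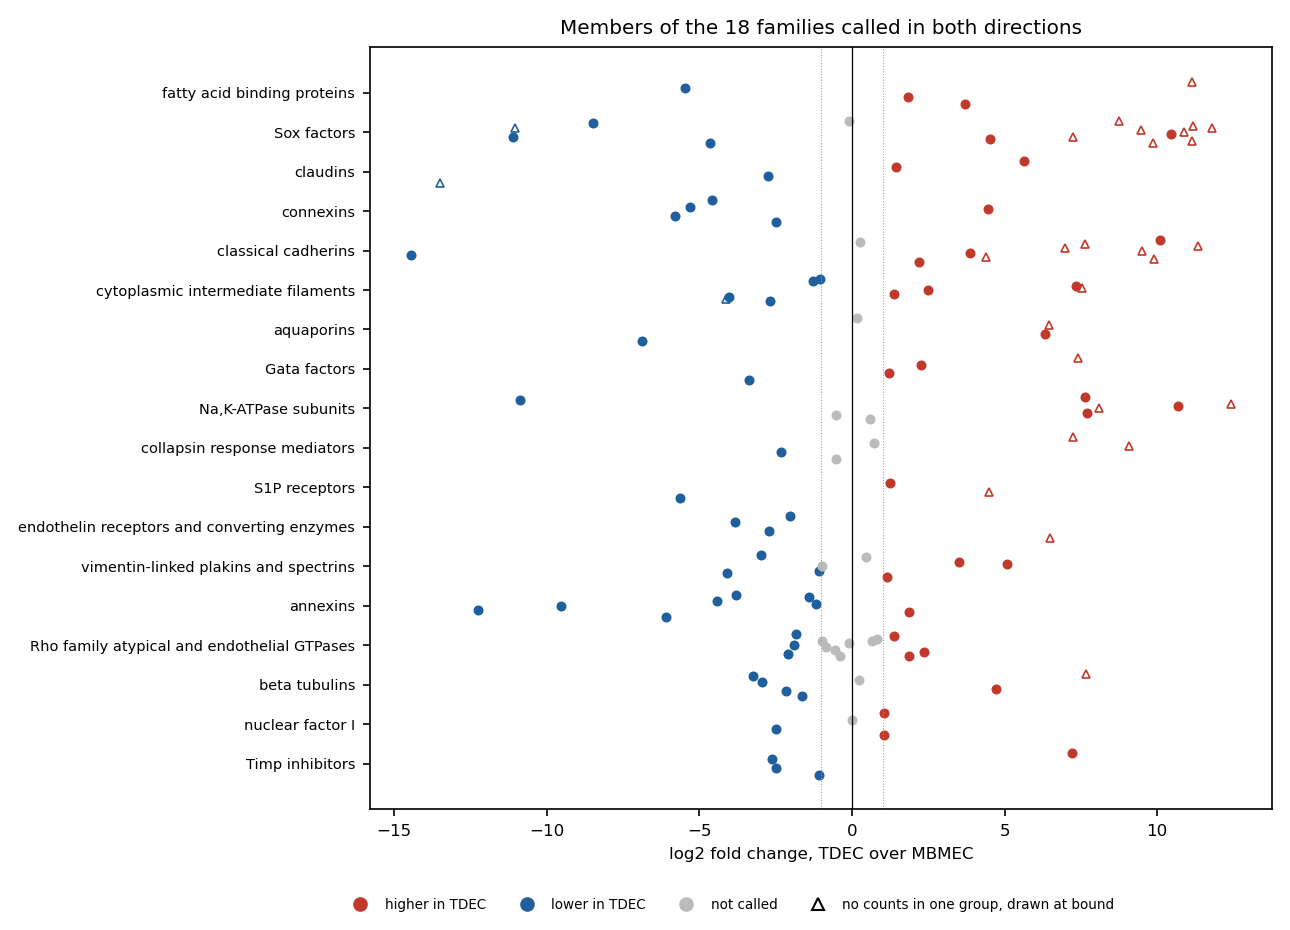
Log2 fold change, TDEC over MBMEC, of each tested member of the 18 families with calls on both sides (red higher, blue lower, grey not called, triangles drawn at the bound). Among cadherins 9 members lie to the right and Cdh5 to the left.

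Among the genes with the highest levels were many of protein synthesis, which every cell uses. On a scale that divides by gene length (TPM), and leaving out predicted and mitochondrially encoded genes, Eef1a1, an elongation factor gene, led in both groups with 12389 ± 224 TPM in TDECs and 9499.6 ± 68.3 TPM in MBMECs. In TDECs the second was Fth1, at 8661 ± 77.2 TPM in TDECs and 2055 ± 41.7 TPM in MBMECs. In MBMECs the second was Ftl1, at 3073 ± 79.3 TPM in TDECs and 7525 ± 129 TPM in MBMECs. Igfbp3, a secreted IGF carrier, was among the 10 highest of TDECs, with 4115 ± 54.1 TPM in TDECs and 1907 ± 111 TPM in MBMECs. Lgals1, galectin-1, and Actb, cytoplasmic actin, were among the 10 highest of MBMECs, with 1281 ± 90.04 TPM in TDECs and 4967 ± 105 TPM in MBMECs for Lgals1 and 1462 ± 22.4 TPM in TDECs and 3864 ± 19.1 TPM in MBMECs for Actb. Tpt1, a translation-linked gene, averaged 4492 ± 66.7 TPM in TDECs and 1294 ± 30.1 TPM in MBMECs. Of 78 cytosolic ribosomal protein genes 5 rose and none fell, at a median of 0.15, and 3 fell when that median was set to 0.

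Genes counted in a single group were more frequent on the TDEC side. Taking genes absent from the 3 libraries of one group that averaged 10 CPM or more in the other, 338 genes were confined to TDECs and 74 to MBMECs. TDEC-confined genes led by level included Trim9, a neuronal ubiquitin ligase gene (at least 7018-fold higher), Adgrb1, a brain adhesion receptor gene (at least 5830-fold higher), and Moxd1 (at least 4865-fold higher). MBMEC-confined genes led by level included Plac8 (at least 9496-fold lower), Ly6c1, a surface antigen gene of mouse endothelium (at least 2524-fold lower), and Grb10. Among genes with more than 3 counts in each group, the largest rises at 50 CPM or more included Mrc2, a collagen receptor gene (log2 fold change 11.8, SE 0.12), Cspg5 (log2 fold change 11.07, SE 0.12), the Wnt receptor gene Fzd1 (log2 fold change 11.07, SE 0.098), Chpf (log2 fold change 10.16, SE 0.15) and Lrp4 (log2 fold change 9.62, SE 0.101). Under the same limits the largest falls included Ctla2a, a cathepsin inhibitor gene (log2 fold change −12.72, SE 0.13), Hcls1, a cortactin relative (log2 fold change −10.67, SE 0.15), Rasgrp3, a Ras activator (log2 fold change −10.38, SE 0.14), and Fam198b (log2 fold change −10.398, SE 0.12).

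Differences were uneven over the genome. The 444 tested protein-coding genes of chromosome 14 had a median log2 fold change of 0.88, and 45.3% of them were higher and 13.5% lower. The 396 of chromosome 16 had a median of −0.87, with 14.1% higher and 45.7% lower. The other chromosomes with such medians ranged over −0.24 to 0.43, and all protein-coding genes together stood at 0.08. With genes of at least 10 CPM alone the medians were 0.79 for chromosome 14 and −0.91 for chromosome 16. In segments of 10 megabases that held at least 10 genes, 11 of 11 segments of chromosome 14 lay above the median of all genes, and 8 of 9 segments of chromosome 16 lay below it. Among the segments left out for fewer genes, 1 of chromosome 14 with 4 genes lay below, at −0.44. Chromosomes 1 and 7 were uniform in sign too, with 19 of 19 segments above and 15 of 15 below. Chromosome 14 took 3.994% to 4.001% of protein-coding nuclear counts in TDECs, against 2.102% to 2.132% in MBMECs, and chromosome 16 took 1.63% in TDECs against 3.18% to 3.20% in MBMECs. The 005 libraries were on the same side, with 3.47% to 3.51% for chromosome 14 and 1.87% to 1.92% for chromosome 16. No DNA was measured, and no value above was adjusted for the chromosome of its gene.

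**Figure D5:**
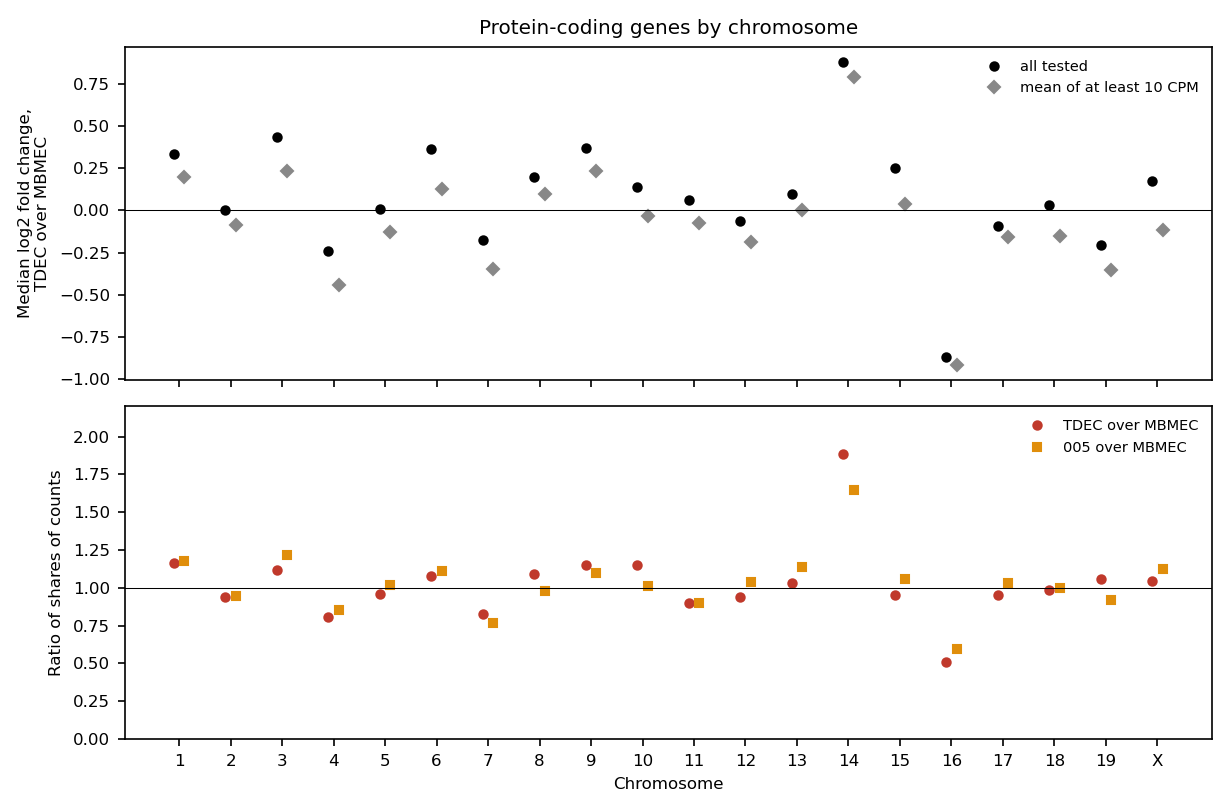
Median log2 fold change of tested protein-coding genes by chromosome (upper panel, circles for all tested, diamonds for at least 10 CPM) and the ratio of shares of protein-coding counts, TDEC over MBMEC in red and 005 over MBMEC in orange (lower panel). Chromosome 14 stands at ratios of 1.89 and 1.65 and chromosome 16 at 0.51 and 0.60.

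The parent line 005 was scaled together with both groups to place the levels above, as values side by side, since 005, TDECs and MBMECs share no further test here. Endothelial genes were near 0 in 005 as well, with Cdh5 at 0.083 ± 0.144 CPM in TDECs, 0.024 ± 0.0416 CPM in 005 cells and 2136 ± 51.6 CPM in MBMECs and Pecam1 at 0.735 ± 0.0985 CPM in TDECs, 1.36 ± 0.333 CPM in 005 cells and 1289 ± 25.7 CPM in MBMECs. Sox2, a factor of neural stem cells, stood at 234 ± 10.9 CPM in TDECs, 296 ± 13.1 CPM in 005 cells and none in MBMECs. Fabp7 stood at 149 ± 12.4 CPM in TDECs, 394 ± 68.4 CPM in 005 cells and none in MBMECs, and Prox1 at 40.9 ± 3.48 CPM in TDECs, 52 ± 5.58 CPM in 005 cells and none in MBMECs. In these genes TDECs and 005 lay on the same side of MBMECs.

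In other genes the TDEC level lay apart from both. Ero1l stood at 1904 ± 21.8 CPM in TDECs, 159 ± 22.5 CPM in 005 cells and 50.8 ± 4.87 CPM in MBMECs. Mt2 stood at 408 ± 44 CPM in TDECs, 10.9 ± 3.62 CPM in 005 cells and 0.702 ± 0.263 CPM in MBMECs, and Fth1 at 9906 ± 68.9 CPM in TDECs, 1818 ± 198 CPM in 005 cells and 2467 ± 79.2 CPM in MBMECs. F3 stood at 123 ± 2.65 CPM in TDECs, 21.3 ± 2.1904 CPM in 005 cells and 0.989 ± 0.196 CPM in MBMECs, and Gfap at 33.5 ± 2.03 CPM in TDECs, 3.89 ± 1.68 CPM in 005 cells and 0.199 ± 0.138 CPM in MBMECs. Cdkn2a stood at 667 ± 29.6 CPM in TDECs, 216 ± 31.2 CPM in 005 cells and 39.3 ± 2.26 CPM in MBMECs. Mki67, a marker of cycling cells, stood at 10.5 ± 0.198 CPM in TDECs, 367 ± 30.9 CPM in 005 cells and 374 ± 36.6 CPM in MBMECs, so that 005 and MBMECs were near each other and TDECs below both.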

How the data were processed

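The authors deposited raw read counts per gene for 49585 genes. Per their processing notes, reads came from bcl2fastq 2.19, were trimmed by Trimmomatic 0.38, aligned to mm10 by HISAT2 2.1.0 and assigned to genes by featureCounts 1.6.3. The strand setting is not stated, so overlapping genes are uncertain. How reads with several matches were counted is not stated either, so near-identical copies, Gapdh among them, are uncertain too. The 6 libraries were fitted by edgeR 4.0.16 under R 4.3.3 (TMM scaling, filterByExpr at a minimum count of 10, quasi-likelihood test, Benjamini-Hochberg adjustment over 16135 genes). An exact permutation test of 3 libraries against 3 cannot go below p = 0.1 and was not used. DESeq2 1.42.0 served as an alternative. TPM used exon lengths of GENCODE M21, which gave a length to 49326 genes. Levels beside 005 were scaled over 9 libraries.

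All lists, families and tests were chosen with earlier results of these data known. The rule for naming genes took up to 4 called members per direction of each list by level, the defining markers, members of families on both sides, the 12 largest changes and 10 highest levels per direction, and the 8 highest genes confined to a group. It named 442 genes, and of those in the text 146 were chosen after their values were seen. Some genes of the lists are not reported here. Replicate numbers do not pair libraries: deviations of equal-numbered libraries correlated at −0.0087, 0.024 and 0.018.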

Additional observations from a re-analysis of the deposited data

How the results depend on the processing

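No called gene that the text names turned its direction under an alternative that was run. Of 7893 calls, 7006 were kept when edgeR tested against a fold of 2, and 7881 with the replicate number as a block, which called 4533 genes higher and 3363 lower. With the ribosomal protein genes centred at 0, which moved the median of all genes by −0.15 on the log2 scale, 4202 genes were higher and 3770 lower, and 52.7% of calls were higher, against 57.4% as reported. With at least 1 count as the filter 6181 were higher and 4001 lower. Leaving out 1 library at a time gave 4692 to 4802 higher and 3386 to 3551 lower. Families on both sides numbered 17 to 18. Of 1344 counts of list members under alternatives 17 moved by over 1.5 times: with at least 1 count, members higher numbered 5 in place of 3 for endothelial transcription factors, 19 in place of 12 for the oligodendrocyte lineage, 10 in place of 5 for mural markers, 4 in place of 0 for epithelial markers and 2 in place of 1 for MHC class I. Against a fold of 2, 2 neuronal genes fell in place of 4, 1 patterning factor in place of 2, and 3 mural markers rose in place of 5. With a mean of 1 CPM as the limit, 943 genes were confined to TDECs and 178 to MBMECs. The sign changes all lay in uncalled genes near 0, and their cause was not tested. Nfib stood at 0.0061 with DESeq2 size factors, 0.047 with library totals and 0.0062 in the DESeq2 Wald test. Ribosomal centring gave −0.10 for Hk1, −0.14 for Rps15 and −0.056 for Tnc, library totals gave 0.016 for Itgb1, and at least 1 count gave −0.022 for Rps15. Without 1 library at a time Abcb1a ranged over −0.71 to 0.13, Nfib over −0.088 to 0.025 and Rps15 over −0.026 to 0.035. Of 7867 log2 fold changes of named genes under alternatives, 7785 kept sign and call, 47 lost the call, 22 gained it and 13 changed sign. Genes of a few counts, such as the defining endothelial markers in TDECs, are limited by depth.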
